A study of Rattus norvegicus with 4 samples.

Results

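The genes described here are the ligands and receptor chains of the IL-6 family of cytokines, which share the signalling receptor gp130. They were chosen by name: 4 ligand genes (Il6, Il11, Lif and Clcf1) and 5 receptor-chain genes (Il6st, Osmr, Lifr, Il11ra1 and Il6r), and each had 1 row among the 17778 gene rows of the deposited table. RNA came from RSC96 cells at generation 4, a rat line grown from Schwann cells, which are the glia of peripheral nerves. All cells spent a night without serum. The IL-22 group was then given recombinant rat IL-22 at 100 ng/ml for 48 h, and the control group received only the solvent, 0.1% bovine serum albumin, with no duration in the labels. There were 2 libraries per group. Whether they came from separate cultures is not stated, so the p-values cover no more than the variation among these libraries, and that may be technical. The study asked how IL-22 bears on the growth of Schwann cells and on nerve repair.

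Some cytokines of this family, such as IL-6 and IL-11, first meet a binding chain of their own, while LIF has none and binds LIFR. They join gp130, encoded by Il6st, either in pairs or with LIFR or OSMR as the partner chain. The joined chains activate Janus kinases and then STAT3, the transcription factor that IL-22 also uses through a different receptor of the IL-10 family. In peripheral nerve these ligands are known as injury signals, and CNTF is known as a product of myelinating Schwann cells.

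Promoter sequences are shown for a ligand and a receptor chain that were higher with IL-22, Il11 and Osmr, and for Il6, the ligand listed at 0 in 3 of 4 libraries. RefSeq's promoter table for the assembly GRCr8 held 6 of the 9 members. It had no entry for Lif, Clcf1 or Il11ra1. Each stretch is the 250 bases before the annotated start, read 5′ to 3′ on the gene's strand, at chr1:78098372-78098621 on the + strand for Il11, chr2:57688562-57688811 on the - strand for Osmr and chr4:5894576-5894825 on the - strand for Il6. Capitals mark matches to 5 motifs searched on both strands: the STAT motif TTCNNNGAA, the AP-1 motif TGANTCA, the cyclic AMP response element TGACGTCA, the C/EBP motif TTGCNNAA and the NF-kappaB motif.
Il11: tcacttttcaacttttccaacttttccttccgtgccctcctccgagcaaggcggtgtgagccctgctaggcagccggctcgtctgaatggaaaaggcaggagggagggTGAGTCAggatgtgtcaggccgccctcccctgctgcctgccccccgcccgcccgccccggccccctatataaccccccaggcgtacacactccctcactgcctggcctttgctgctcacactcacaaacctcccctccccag
Osmr: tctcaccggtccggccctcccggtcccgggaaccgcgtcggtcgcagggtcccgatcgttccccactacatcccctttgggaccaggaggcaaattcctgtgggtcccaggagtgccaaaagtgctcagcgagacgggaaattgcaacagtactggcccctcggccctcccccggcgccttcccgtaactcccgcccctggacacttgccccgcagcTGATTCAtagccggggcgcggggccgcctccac
Il6: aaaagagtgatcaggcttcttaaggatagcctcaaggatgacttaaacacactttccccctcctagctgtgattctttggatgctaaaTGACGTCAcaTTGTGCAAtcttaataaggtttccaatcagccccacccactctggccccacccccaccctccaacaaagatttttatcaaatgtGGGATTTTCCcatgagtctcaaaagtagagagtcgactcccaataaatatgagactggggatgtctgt

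The Il11 and Osmr stretches each held 1 AP-1 match, 142 to 136 bases and 33 to 27 bases before the start, and neither held a match to the other 4 motifs. The Il6 stretch held 1 cyclic AMP response element, 1 C/EBP match and 1 NF-kappaB match, at 162 to 155, 152 to 145 and 68 to 59 bases before the start. No match overlapped another. Of all 33469 promoters in the table, the 250 bases before the start held the AP-1 motif in 6.34%, the cyclic AMP response element in 1.59%, the C/EBP motif in 9.22%, the NF-kappaB motif in 6.33% and the STAT motif in 7.67%. The stretches of Il6st, Lifr and Il6r held none of the 5 motifs. A match is a run of letters and not a measured binding site.

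Expression is in FPKM (fragments relative to transcript length and to library depth), so levels can be compared between genes. Read totals are unknown, and the spacing of low values put depth at 1.28 times control library 1 in control library 2 and at 1.08 times in both IL-22 libraries. Each difference subtracts the control mean from the IL-22 mean of log2(FPKM + 1), with its standard error from limma, and this scale understates the change of low genes. Adjusted p-values are Benjamini-Hochberg values over the 9485 rows whose mean reached 1 FPKM. Of 13 Schwann lineage marker genes 12 had a row, and 9 stayed under 1 FPKM in every library. Mbp, Cdh19 and Gap43 were listed at 0 throughout, and Sox10 and S100b were listed at 0 in 3 of 4 libraries. Of the 3 tested members, 2 were called higher and 1 lower: Ncam1 (0.55), the neuregulin receptor gene Erbb3 (from 0.819 and 0.685 FPKM to 1.51 and 1.62 FPKM, limma adjusted p = 0.0181) and Gfap (-0.70). Erbb3 reached a mean of 1 FPKM only through its IL-22 libraries, and Gfap only through its controls. The call of Erbb3 was lost with quantile normalization, without control library 2 and when either IL-22 library was left out. The summed FPKM of this list was 27.3 and 28.2 in controls and 36.8 and 41.4 with IL-22, most of it from Ncam1, an adhesion molecule gene. Of 12 macrophage and leukocyte markers 11 had a row, and 9 stayed under 1 FPKM in every library, with Ptprc at 0 in 3 libraries. Cd14 and Cd68 were tested and neither was called. Cd14 measured 2.22 and 2.16 FPKM in controls and 4.61 and 2.47 FPKM with IL-22. Cd68 measured 1.56 and 1.21 FPKM in controls and 0.998 and 0.775 FPKM with IL-22. The list's sum was 4.47 and 4.19 FPKM in controls and 6.70 and 4.04 with IL-22. Of 8 fibroblast markers Dcn and Lum were at 0 throughout. The sum, mostly Thy1, was 233 FPKM or more in both controls and 282 FPKM in both IL-22 libraries. Of 5 tested members 4 were called higher and 1 lower, and the call of Thy1 was lost in 6 of the 13 alternative settings. Beside these marker counts, 27.6% of all 9485 rows tested were called higher and 30.8% lower. Of 5 endothelial markers none was tested, and the sum was at most 1.90 FPKM. The part of these markers in the results below was not tested. In bulk RNA, fewer cells that express a gene and less RNA per cell cannot be told apart.

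The 2 largest changes among the 7 tested members were rises of ligand genes. Lif rose 6.45-fold and Il11 7.29-fold with IL-22, Clcf1 fell to 0.748 of its control level, and Il6 had a value above 0 in 1 of the 4 libraries. The gp130 gene Il6st measured 27.7 ± 0.758 and 28.1 ± 0.806 FPKM (SD, n = 2), and the receptor chains with values above 0 moved by at most 1.65-fold in either direction. Of the 9 members 7 reached the expression minimum, of which 4 were called higher, 2 lower and 1 neither. Over all 9485 rows tested, limma called 27.6% higher and 30.8% lower, 58.4% in all. The groups did not overlap for 6 of the 7 tested members, where 80.1% of all rows tested had groups apart, so counts of this kind do not set the members apart from other genes. Il11 reached the minimum only through its IL-22 libraries.

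**Figure D1:**
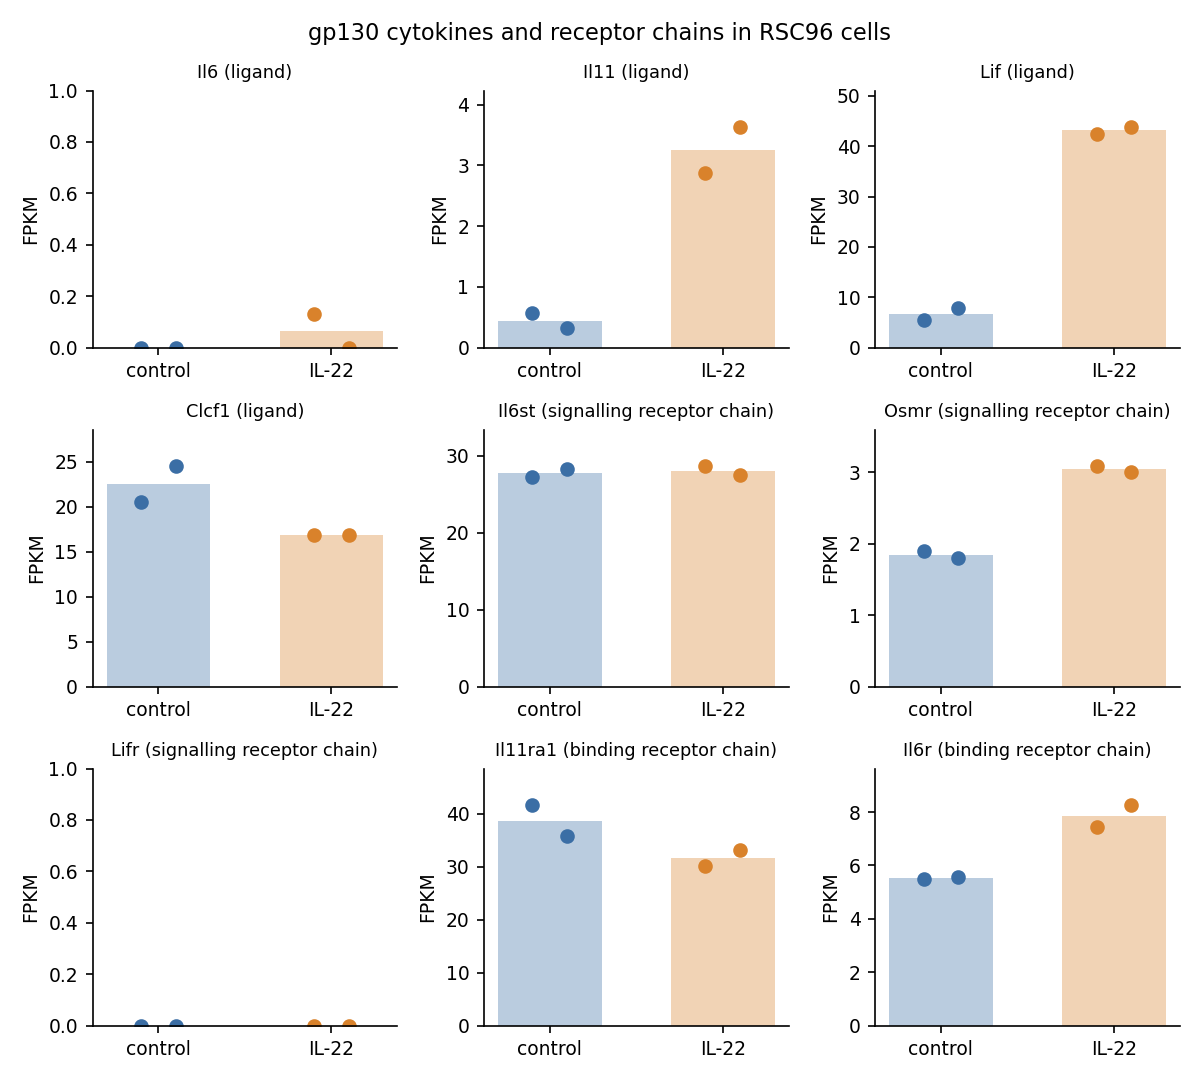
FPKM of the 9 members, 1 panel per gene with its own axis from 0; points are libraries (2 control in blue, 2 IL-22 in orange) and bars are group means. Lif goes from 5.40 and 7.97 FPKM to 42.5 and 43.8 FPKM, the points of Il6st overlap, Il6 has 1 library above 0 and Lifr has none.

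Lif encodes leukemia inhibitory factor, which signals through LIFR and gp130. It measured 5.40 and 7.97 FPKM in the controls and 42.5 and 43.8 FPKM with IL-22. Both IL-22 libraries lay far above both controls, and the gap between the 2 controls was larger than the gap between the 2 IL-22 libraries. The difference was 2.54 ± 0.14 (95% interval 2.22 to 2.86, limma adjusted p = 1.49e-06), which is the rise of rank 34 among 9485 rows. The call held in all 13 alternative settings, with a difference between 2.05 and 2.79.

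Il11 encodes interleukin-11, which binds IL-11 receptor alpha and then gp130. Its level was 0.573 and 0.319 FPKM in controls and 2.87 and 3.63 FPKM with IL-22, so the groups were apart but all 4 values were low. The difference was 1.56 ± 0.18 (limma adjusted p = 8.86e-05) and ranked 138 among the rises. Its size depends on the pseudocount, at 2.65 with 0.1 and 0.60 with 5, and the call held in all 13 alternatives.

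Clcf1 encodes cardiotrophin-like cytokine factor 1, a ligand of the CNTF receptor. It measured 20.6 and 24.5 FPKM in controls and 16.8 and 16.9 FPKM with IL-22. Both controls were above both IL-22 libraries, which were nearly equal to each other. The gap between groups was slightly smaller than the gap between the 2 controls. The fall was -0.39 ± 0.10 (limma adjusted p = 0.00734). It passed in all 13 alternatives, closest to the threshold without control library 2 (limma adjusted p = 0.0479).

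Il6 encodes interleukin-6, the cytokine that gave the family its name. Its row was listed at 0 in both controls and in IL-22 library 2, and at 0.131 FPKM in IL-22 library 1. It was under the expression minimum and was not tested, and no fold is given against a group at 0. In the fit with no minimum its difference was 0.09 (limma adjusted p = 0.398).

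Summed over the 4 ligand genes, the level was 26.6 and 32.8 FPKM in controls and 62.3 and 64.3 FPKM with IL-22. Clcf1 held 77.5% and 74.7% of that sum in the controls. With IL-22 Lif held 68.2% and 68.1%, and Clcf1 27.0% and 26.3%. The ratio of Lif to Clcf1 was 0.262 and 0.325 in controls and 2.52 and 2.59 with IL-22, so the more abundant of these 2 ligand transcripts was a different one in each group. Over the 5 receptor-chain genes the sums were 76.2 and 71.5 FPKM in controls and 69.4 and 71.9 FPKM with IL-22, and here the groups overlapped. These sums describe the libraries and were not tested, since the smallest two-sided p of an exact permutation test of 2 libraries against 2 is 0.333.

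**Figure D2:**
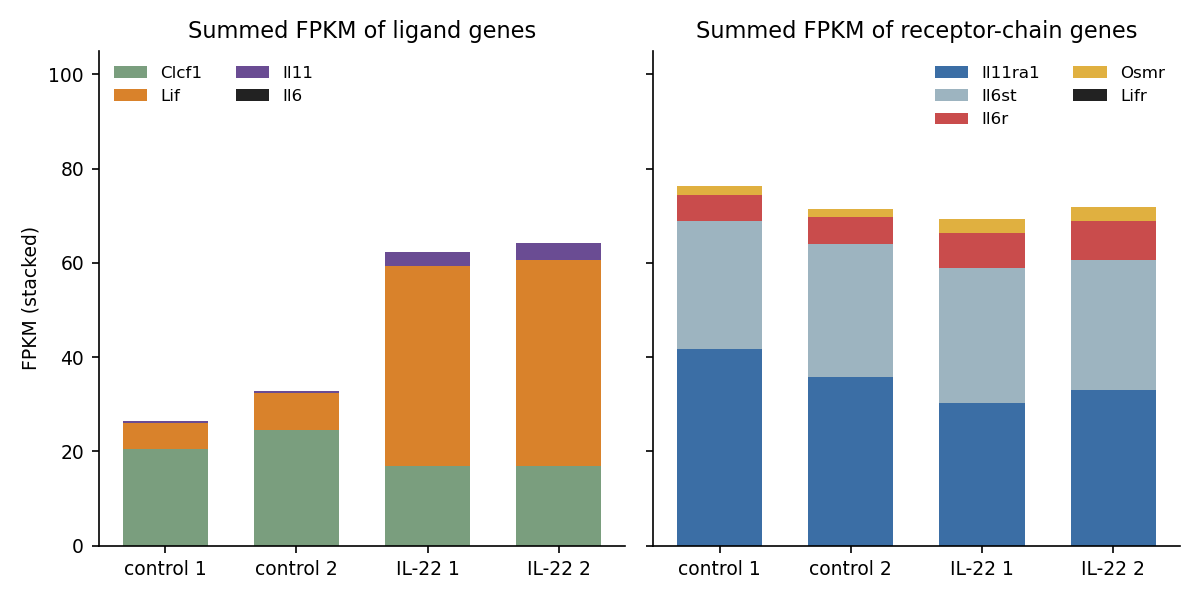
Stacked FPKM of the 4 ligand genes (left) and the 5 receptor-chain genes (right) in each of the 4 libraries, on 1 common axis from 0. The ligand sum goes from 26.6 and 32.8 FPKM in controls to 62.3 and 64.3 FPKM with IL-22, mostly through Lif, while the receptor sums stay between 69.4 and 76.2 FPKM.

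Il6st, which encodes gp130 itself, measured 27.2 and 28.3 FPKM in controls and 28.7 and 27.5 FPKM with IL-22. The 2 groups interleaved. The difference was 0.02 ± 0.08, with a 95% interval from -0.15 to 0.19 (limma adjusted p = 0.855). The interval bounds a change of this shared chain on the log2(FPKM + 1) scale and does not show that none occurred.

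Osmr encodes the oncostatin M receptor chain, which pairs with gp130. It measured 1.90 and 1.80 FPKM in controls and 3.09 and 3.002 FPKM with IL-22, low values with the groups apart. The rise was 0.51 ± 0.14 (limma adjusted p = 0.0116), and it was 0.23 with a pseudocount of 5. The call was lost with quantile normalization (difference 0.31, limma adjusted p = 0.083) and without IL-22 library 1 (difference 0.49, limma adjusted p = 0.0565).

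Lifr encodes the LIF receptor chain that LIF, CNTF and CLCF1 need beside gp130. It was listed at 0 in all 4 libraries. An exact 0 in a table of this kind can be a failed estimate, so the row shows only that no level was given, while the row of its ligand Lif held the family's highest level with IL-22.

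Il6r encodes the IL-6 binding chain, which has little signalling activity of its own. It measured 5.49 and 5.58 FPKM in controls and 7.46 and 8.25 FPKM with IL-22, with both IL-22 libraries above both controls. The rise was 1.42-fold, a difference of 0.44 ± 0.11 (limma adjusted p = 0.00746). It was 0.29 with a pseudocount of 5, and it was not called without IL-22 library 2 (difference 0.37, limma adjusted p = 0.0583).

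Il11ra1 encodes the IL-11 binding chain and was the most abundant member in controls. It measured 41.6 and 35.8 FPKM in controls and 30.2 and 33.1 FPKM with IL-22, a gap between groups that is smaller than the gap between the 2 controls. The difference was -0.28 ± 0.09 (limma adjusted p = 0.0257). This was the least stable call of the family. It was lost with quantile normalization (limma adjusted p = 0.0924), without the variance trend (0.0597), without the expression minimum (0.0866), without control library 1 (difference -0.17, limma adjusted p = 0.162) and without IL-22 library 1 (difference -0.22, limma adjusted p = 0.141). In RefSeq's GRCr8 annotation Il11ra1 overlaps the chemokine gene Ccl27, Clcf1 overlaps Rad9a, Il6r overlaps She and Il6st overlaps a lncRNA gene. The strand setting of the counting is not given in the sources used here, so reads from stretches that such a pair shares may not be told apart. The row of Ccl27 was at 0.687 FPKM in control library 2 and at 0 in the other libraries.

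**Figure D3:**
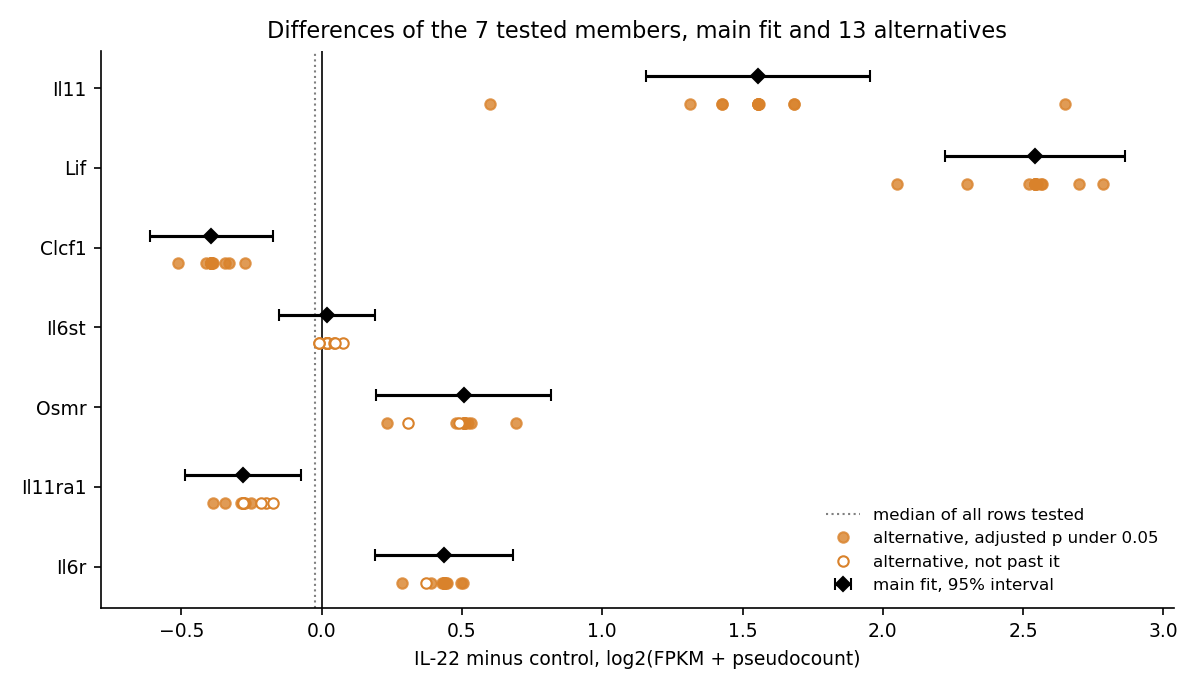
Differences of the 7 tested members, IL-22 minus control. Black diamonds with bars are the estimate and its 95% interval, orange points are the 13 alternatives (filled where the adjusted p was under 0.05), and the dotted line is the median of all rows tested. Lif, Il11 and Clcf1 have filled points only, while Il11ra1 has 5 open points, Osmr 2 and Il6r 1.

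Ordered by level, the controls ran from Il11ra1 (38.7 ± 4.12 FPKM, SD, n = 2) through Il6st, Clcf1 (22.5 ± 2.78), Lif (6.68 ± 1.82), Il6r (5.53 ± 0.0586), Osmr (1.85 ± 0.0721) and Il11 (0.446 ± 0.180) to Il6 and Lifr, both at 0. Only Lif and Il6r overlapped as neighbours among the control values above 0. With IL-22 the order was Lif (43.1 ± 0.908 FPKM, SD, n = 2), Il11ra1 (31.7 ± 2.07), Il6st, Clcf1 (16.9 ± 0.0380), Il6r (7.85 ± 0.565), Il11 (3.25 ± 0.533), Osmr (3.04 ± 0.0607), Il6 and Lifr. There Il11 and Osmr overlapped as neighbours, as did Il6 and Lifr. Lif thus went from the fourth place to the first. In its IL-22 mean it exceeded all but 12.8% of the 17778 rows, against 40.6% in controls.

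The receptor chains can also be read against gp130 within each library. Il6r was at 0.202 and 0.197 of the Il6st level in controls and at 0.260 and 0.300 with IL-22. Osmr was at 0.0698 and 0.0636 of it in controls and at 0.108 and 0.109 with IL-22. For Il11ra1 the ratio was 1.53 and 1.27 in controls and 1.05 and 1.20 with IL-22. The ratio of Il11ra1 to Il6r, the 2 binding chains, was 7.58 and 6.42 in controls and 4.05 and 4.01 with IL-22, with no overlap.

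Among tested genes, the 5 whose centred log2(FPKM + 1) values over the 4 libraries lay nearest to those of Lif were Cx3cl1, Pycr1, Ndrg1, Aldoc and Bcl3, at Euclidean distances from 0.0820 to 0.301. Cx3cl1, the gene of the chemokine fractalkine, was nearest and measured 1.15 and 2.02 FPKM in controls and 13.4 and 13.1 FPKM with IL-22. Pycr1, an enzyme of proline synthesis, measured 5.86 and 7.87 FPKM in controls and 46.7 and 46.3 FPKM with IL-22. In all 5 genes, as in Lif, control library 2 was above control library 1, which the choice by distance favours. With 4 libraries in 2 groups, the likeness of these genes to Lif is mostly a like size of rise.

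For the other genes of the family, of 13 listed genes 11 had a row. Beside 27.6% higher and 30.8% lower over all rows tested, limma called 0 higher and 1 lower of 4 tested. At an unadjusted p under 0.05, 1 was higher, the interleukin-23 subunit gene Il23a (0.41, limma adjusted p = 0.0522). Il23a is on the list, but interleukin-23 does not itself signal through gp130. With an expression minimum of 0.5 FPKM or none, 2 were called higher and 1 lower. The lower gene was Ctf1, which encodes cardiotrophin-1, another ligand of LIFR and gp130. It measured 7.13 and 6.57 FPKM in controls and 2.23 and 2.78 FPKM with IL-22, a fall of -1.17 ± 0.13 (limma adjusted p = 8.84e-05). The rest are named after their values were seen, for their part in the receptor complexes. Cntf, the ciliary neurotrophic factor gene, measured 4.01 and 3.65 FPKM in controls and 2.47 and 3.71 FPKM with IL-22 and did not pass (limma adjusted p = 0.21). Cntfr, the receptor chain for CNTF and CLCF1, and Osm, the ligand of OSMR, were listed at 0 in all 4 libraries. Ebi3, a subunit of IL-27 and IL-35, measured 0.122 and 0.189 FPKM in controls and 1.12 and 1.46 FPKM with IL-22 and was under the minimum.

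Of the IL-22 receptor chains and Janus kinases, limma called 3 higher and 0 lower of 5 tested (0 lower at an unadjusted p under 0.05). The median difference was 0.27 beside -0.02 over all rows tested, of which 27.6% were called higher and 30.8% lower. For Il22ra1, which binds IL-22, the table listed 0 in every library. Il10rb, its partner chain, measured 7.53 and 8.39 FPKM in controls and 9.18 and 8.48 FPKM with IL-22 and did not pass (limma adjusted p = 0.301). Jak1 and Jak2, kinases that bind gp130, rose by 0.33 and 0.61 (limma adjusted p = 0.0022 and 0.00178). Tyk2, another Janus kinase on the list, measured 17.1 and 16.6 FPKM in controls and 18.2 and 18.0 FPKM with IL-22. It did not pass (limma adjusted p = 0.321) and is named after its values were seen. Jak3, a kinase of other cytokine receptors, was higher by 0.27, a call lost when either IL-22 library was left out.

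Of 18 tested signal carriers below gp130, limma called 7 higher and 6 lower, beside 27.6% and 30.8% of all rows tested. Their median was 0.06. Without IL-22 library 1 these counts were 3 and 2, and without IL-22 library 2 the higher count was 4. Stat3 measured 46.8 and 45.3 FPKM in controls and 73.8 in both IL-22 libraries, a rise of 0.67 ± 0.07 (limma adjusted p = 3.95e-05). The kinase gene Mapk3 also rose (0.54), while the kinase gene Akt1 (-0.84) and the small GTPase gene Hras (-0.53) fell.

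Feedback inhibitors had 3 higher and 2 lower of 9 tested, with a median of 0.07, where 58.4% of all rows tested were called. Socs3, whose product binds gp130 and blocks its kinases, measured 161 and 166 FPKM in controls and 498 and 533 FPKM with IL-22 (1.65 ± 0.06, limma adjusted p = 1.99e-07). Usp18 (0.88) and Cish (0.79) rose as well. Socs1 fell from 7.25 ± 0.312 to 3.49 ± 0.0816 FPKM (SD, n = 2; -0.88, limma adjusted p = 0.000196), and Pias3 (-0.54), named to complete the count, fell too.

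Receptor shedding and turnover genes gave 1 higher and 2 lower of 6 tested, with a median of -0.04, where 58.4% of all rows tested were called. Rhbdf2, whose product iRhom2 carries the sheddase ADAM17 to the cell surface, rose 2.41-fold from 9.01 and 10.9 FPKM to 23.5 and 24.5 FPKM (1.20, limma adjusted p = 1.83e-05). Its relative Rhbdf1 fell (-0.47), as did the aminopeptidase gene Erap1 (-0.76). Adam17, the protease that cuts the IL-6 receptor from the membrane, was at 16.4 and 15.6 FPKM in controls and 14.96 and 14.1 FPKM with IL-22 and did not pass (limma adjusted p = 0.232). It is named after its values were seen.

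Of 15 tested genes listed as transcription factors acting on the Il6 promoter, 10 were called higher and 1 lower, with a median of 0.92. Over all rows tested 27.6% were called higher and 30.8% lower. The list also holds the gene of an NF-kappaB inhibitor, which is not such a factor and was among those called higher. Il6 itself was listed at 0 in 3 of 4 libraries. Cebpd (3.02), Atf3 (2.66), the NF-kappaB cofactor Nfkbiz (2.55) and Junb (2.12) had the largest differences. Nfkbiz went from 0.872 and 0.883 FPKM to 9.73 and 10.2 FPKM, and like Il11 it reached the expression minimum only through its IL-22 libraries. The lower member was Irf1 (-0.71), named after its value was seen. Regulators of Il6 mRNA stability gave 4 higher and 3 lower of 9 tested, with a median of 0.15. Zc3h12a, which encodes the nuclease Regnase-1 that degrades Il6 mRNA, went from 5.65 and 6.01 FPKM to 29.9 and 29.7 FPKM (2.17 ± 0.09, limma adjusted p = 2.71e-07). Zfp36, which encodes the mRNA-destabilising protein tristetraprolin, rose by 1.09, and Arid5a, whose product stabilises Il6 mRNA, by 1.09. The other higher gene was Zfp36l1 (0.50). The 3 lower ones were Hnrpd (-0.60), Elavl1 (-0.38) and Khsrp (-0.24), of which the last 2 and Zfp36l1 are named to complete the count. The call of Khsrp was lost when either IL-22 library was left out.

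Genes that STAT3 is known to induce below gp130 gave 14 higher and 5 lower of 23 tested, with a median of 0.48. The chemokine gene Ccl2 (3.72), the NF-kappaB cofactor Bcl3 (2.79), Ier3 (2.76) and the adhesion molecule gene Icam1 (2.21) had the largest differences. The 5 lower genes, named after their values were seen, were Ccnd1 (-0.58), Birc5 (-0.46), Fgf2 (-0.57), Gbp2 (-0.43) and Gfap (-0.70), which encode a cyclin, an apoptosis inhibitor, a growth factor, a GTPase and a glial filament. Gfap reached the expression minimum only through its control libraries, was not called without IL-22 library 1 (limma adjusted p = 0.0518) and was under the minimum without control library 1. IL-22 and the gp130 ligands both act through STAT3, and the part of each in this list was not tested. Counting each pathway gene once, 42 were higher, 20 lower and 27 not called of 89 tested, or 69.7% called beside 58.4% of all rows tested. The lists were chosen with earlier results of these data known, and the difference between these shares was not tested.

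**Figure D4:**
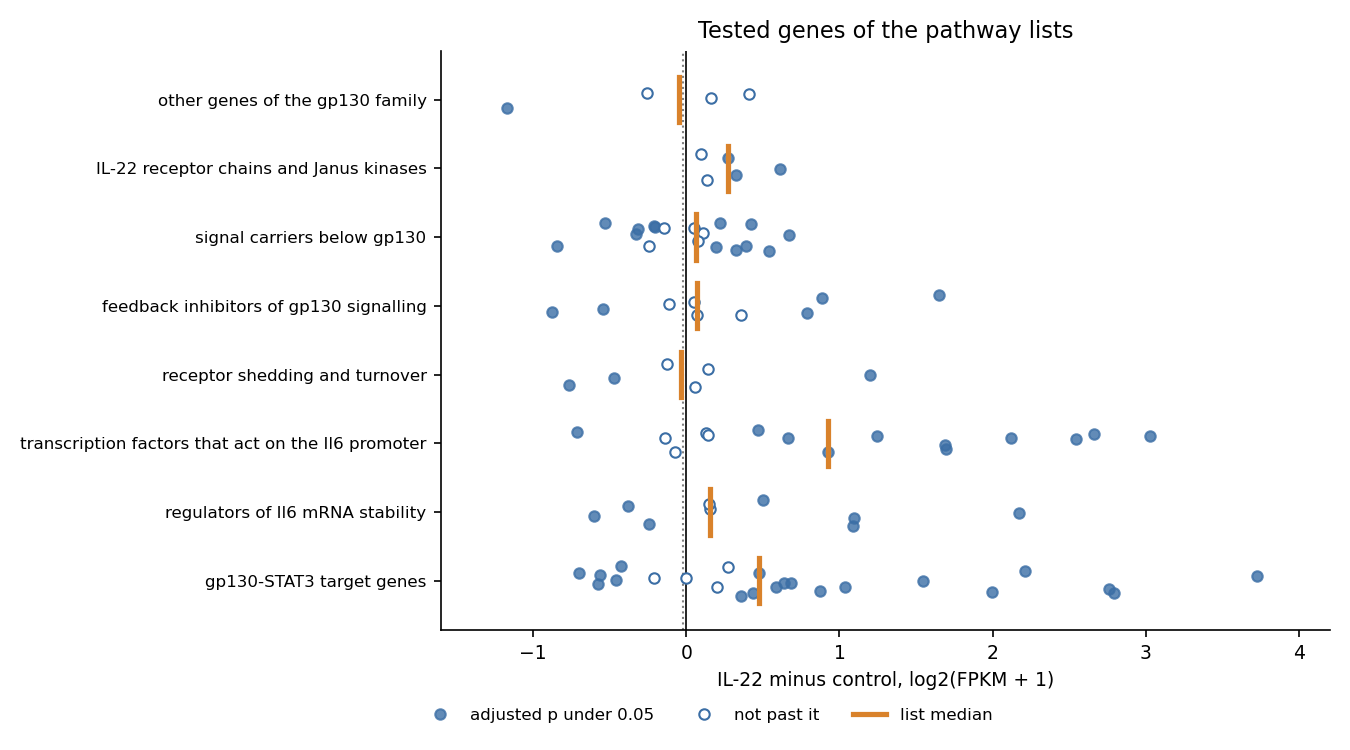
Differences of the tested genes in the 8 pathway lists, IL-22 minus control as log2(FPKM + 1); each point is a gene, filled where the limma adjusted p was under 0.05, bars are list medians and the dotted line is the median of all rows tested. The median lies highest, at 0.92, for the list of Il6 promoter factors, which includes an NF-kappaB inhibitor gene. It lies within 0.1 of 0 for signal carriers, feedback inhibitors, receptor shedding genes and the other family genes.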

How the data were processed

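The gene table that the authors deposited holds FPKM with a separate column for each of the 4 libraries. TopHat2, Cuffdiff and the build rn5 were used, per the submitters' processing notes, which give no versions. Annotation and filters: not given in the sources used here. A second table of lncRNAs was not used. limma 3.58.1 (R 4.3.3) compared the groups on log2(FPKM + 1) for rows whose mean reached 1 FPKM, without covariates. Its eBayes step used a trend, tests were two-sided, and a Benjamini-Hochberg adjusted p under 0.05 made a call. The fit was tested on simulated data. FPKM give no counting error. All 9 members matched by symbol, and sequences came from RefSeq (GRCr8), whose build differs from rn5. Some listed genes are not reported here. The members and lists were chosen with earlier results of these data known. Named from each list were up to 4 called genes with the largest absolute differences (the 2 most abundant if none was called), plus Stat3, Socs3, Il22ra1, Il10rb and the 5 genes nearest to Lif. The 13 alternatives were 2 pseudocounts, 2 expression minimums, 2 scalings, 2 limma settings, a replicate block and leaving out each library. Figures were made with Python 3.11.15 and matplotlib 3.10.9.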

Additional observations from a re-analysis of the deposited data

How the results depend on the processing

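The members called lower numbered 2, and 1 without the expression minimum, with quantile normalization or without the variance trend, where the fall of Il11ra1 was lost. Leaving out 1 library in turn gave 1 to 2 called lower, 3 to 4 called higher and 4 to 6 called in all, and a lone library was then assumed to vary like the other group. Over the 13 alternatives 3 of 7 tested members (Lif, Il11 and Clcf1) kept direction and call. The difference of Il6st, never called, changed sign without control library 1 (-0.0093) and without IL-22 library 1 (-0.0107), and leaving out 1 library in turn gave -0.0107 to 0.0459. Rows called over the whole table numbered 4535 to 5825, beside 5537. Of 48 other named genes that were followed over these alternatives, 41 kept direction and call wherever they were tested. Jak3, Khsrp, Gfap, Erbb3 and Thy1 lost their call under at least 1 alternative, and Il23a and Cntf were called under 3 and 1. With the replicate number as a block, 6 members and 5825 rows were called. The labels do not say that a number marks a shared culture, and deviations from the group means of same-numbered libraries correlated with r = -0.00197 across 9485 genes, so the numbers were not taken as pairs. Absolute depth is unknown, so for Il6 and Lifr no limit can be set on what a value of 0 allows.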
